A study of Mus musculus with 7 samples.

Results

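Acute phase proteins are secreted proteins whose synthesis shifts with inflammation. The genes described here are those of 10 such proteins: the plasma carriers Orm1, Orm2 and Hp, the serum amyloid A proteins Saa1 and Saa3, the iron and copper proteins Lcn2 and Cp, the complement component C3, and the protease inhibitors Itih4 and Serpina3n. Members were the probe sets annotated to exactly 1 of these symbols, which gave 9 genes of 18193 with a symbol on the array. No probe set was annotated to C3 alone, and C3 was not analysed here. Of the 9 genes, 7 had a mean signal above the filter of 57.7 and were tested, while Orm2 and Itih4 lay below it and are given as values only. Each gene is represented by its brightest probe set, and the others stand beside it.

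The liver makes most circulating acute phase protein, where the cytokines interleukin-6 and interleukin-1 act through STAT3, C/EBP and NF-kB factors. Several of these genes are also transcribed elsewhere: Hp and Orm1 in adipocytes, Saa1, Saa3 and Lcn2 in epithelium, and Lcn2 and Hp in maturing neutrophils. The mammary gland of a virgin mouse is an epithelial tree in a fat pad, so the adiponectin gene Adipoq, transcribed in adipocytes, was followed beside the members.

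The tissue was mammary gland of virgin female FVB mice, 8 weeks old, and every mouse of either group carried the PyV-MT transgene, the polyoma virus middle T oncogene that drives mammary tumours. From 4 weeks of age the mice ate for 4 weeks either chow with 1% conjugated linoleic acid (CLA), linoleic acid isomers with conjugated double bonds, or control AIN93G chow. The study placed 6 mice on CLA and 5 on control chow, and 4 CLA arrays and 3 control arrays, each labelled as 1 mouse, are compared here. Replicate numbers follow the order of the samples and pair nothing.

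Signals are MAS5 intensities that were scaled to the same trimmed mean of 500.003 on all 7 arrays. Control replicates 2 and 3, labelled female, had almost no signal for Xist, the RNA that silences an X chromosome in females. Its brightest probe set read 5660 to 11397 on the 4 CLA arrays and 10042, 94.1 and 78.0 on control replicates 1 to 3. The 9 probe sets of the Y chromosome genes Eif2s3y, Kdm5d and Uty stayed at or below 46.7 on every array. Titles of CLA replicate 1 and control replicate 1 start with 27 and the other titles with 28, and no source used here says what these numbers mean. RNA integrity, read as Actb signal near the 3′ end over that near the 5′ end, stood apart on CLA replicate 3 (2.78, with 1.41 to 1.88 elsewhere). Of the cell type markers, all 9 luminal epithelial ones and the 9 adipocyte ones with a probe set were above the filter. So were all 7 basal epithelial, 9 macrophage, 7 fibroblast and 7 skeletal muscle markers. Of 10 hepatocyte markers only the prothrombin gene F2 was above it.

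On the probe sets used, Saa1 and Saa3 were ordered identically over the 7 arrays, as given below. The Saa1 probe set used was designed on a sequence that RefSeq assigns to Saa2. The promoter windows of these 3 genes are therefore shown, 250 bases before to 50 after the start site, from RefSeq on GRCm38.p6. Saa1 (chr7:46742931-46743230) and Saa3 (chr7:46715627-46715926) lie on the minus strand of chromosome 7 and Saa2 (chr7:46751583-46751882) on the plus strand. All are written 5′ to 3′ along the gene, and capitals mark matches to the C/EBP letters TTGCNNAA on either strand.
Saa1: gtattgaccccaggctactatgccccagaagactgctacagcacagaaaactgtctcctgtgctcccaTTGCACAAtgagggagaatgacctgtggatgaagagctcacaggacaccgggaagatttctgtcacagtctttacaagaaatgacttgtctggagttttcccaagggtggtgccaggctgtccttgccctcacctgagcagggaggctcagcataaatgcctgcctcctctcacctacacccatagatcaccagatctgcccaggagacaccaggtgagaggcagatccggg
Saa2: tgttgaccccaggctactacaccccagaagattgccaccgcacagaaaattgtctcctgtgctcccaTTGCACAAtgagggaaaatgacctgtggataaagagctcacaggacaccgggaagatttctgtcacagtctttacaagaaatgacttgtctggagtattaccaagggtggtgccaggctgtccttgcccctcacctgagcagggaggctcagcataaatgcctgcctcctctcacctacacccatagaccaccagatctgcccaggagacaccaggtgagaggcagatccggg
Saa3: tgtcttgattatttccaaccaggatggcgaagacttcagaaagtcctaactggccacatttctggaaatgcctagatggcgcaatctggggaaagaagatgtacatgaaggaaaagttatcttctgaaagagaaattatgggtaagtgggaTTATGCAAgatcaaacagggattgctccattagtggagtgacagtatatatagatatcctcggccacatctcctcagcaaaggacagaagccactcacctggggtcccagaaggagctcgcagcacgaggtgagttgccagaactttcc
The Saa1 and Saa2 windows shared 287 identical bases in 301 aligned columns (95.3%), and those of Saa1 and Saa3 shared 192 in 354 (54.2%). Each of the 3 windows held 1 C/EBP match, at bases -182 to -175 of Saa1, -183 to -176 of Saa2 and -99 to -92 of Saa3. Such a match was present in 10.8% of all 32851 promoter windows of this length. None of the 3 held an exact match to the NF-kB motif searched (1.63% of windows) or to the STAT letters TTCNNNGAA (8.3%). Both were searched on either strand and chosen, like the C/EBP letters, with the values known. Only 1 form of the NF-kB motif was searched, and sequences that differ from it by a base were not looked for. The absence of a match therefore does not show that a window lacks NF-kB-like sequences. A match is a description of the letters and not a binding site. The table held windows for 8 members and not for Orm1 or Hp.

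Across the members, lower signal in CLA glands was concentrated in Orm1 and Hp, with log2 changes of -2.17 and -1.39. Saa1, Saa3, Cp and Serpina3n were between -0.50 and -0.27 with overlapping groups, and Lcn2 was at -0.07. All 7 tested members had a negative log2 change, as did 44.7% of the 12498 genes tested, and their median was -0.44 against 0.03 over all genes tested. None passed limma with Benjamini-Hochberg adjustment over all genes (0 of 12498 genes did, 0%). At an unadjusted p under 0.05, 2 of the 7 members were lower (Orm1 and Hp) and 0 higher, where 3.01% of all genes were lower, 2.38% higher and 5.39% either. The groups did not overlap for 1 member, Orm1, lower in CLA, where 2.67% of all genes were separate in that direction and 5.31% in either. With control replicate 1 as the only control array the members' median was 0.085. That fit has 1 array in an arm and called 0 of 12494 genes, so its count of members says nothing about them.

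**Figure D1:**
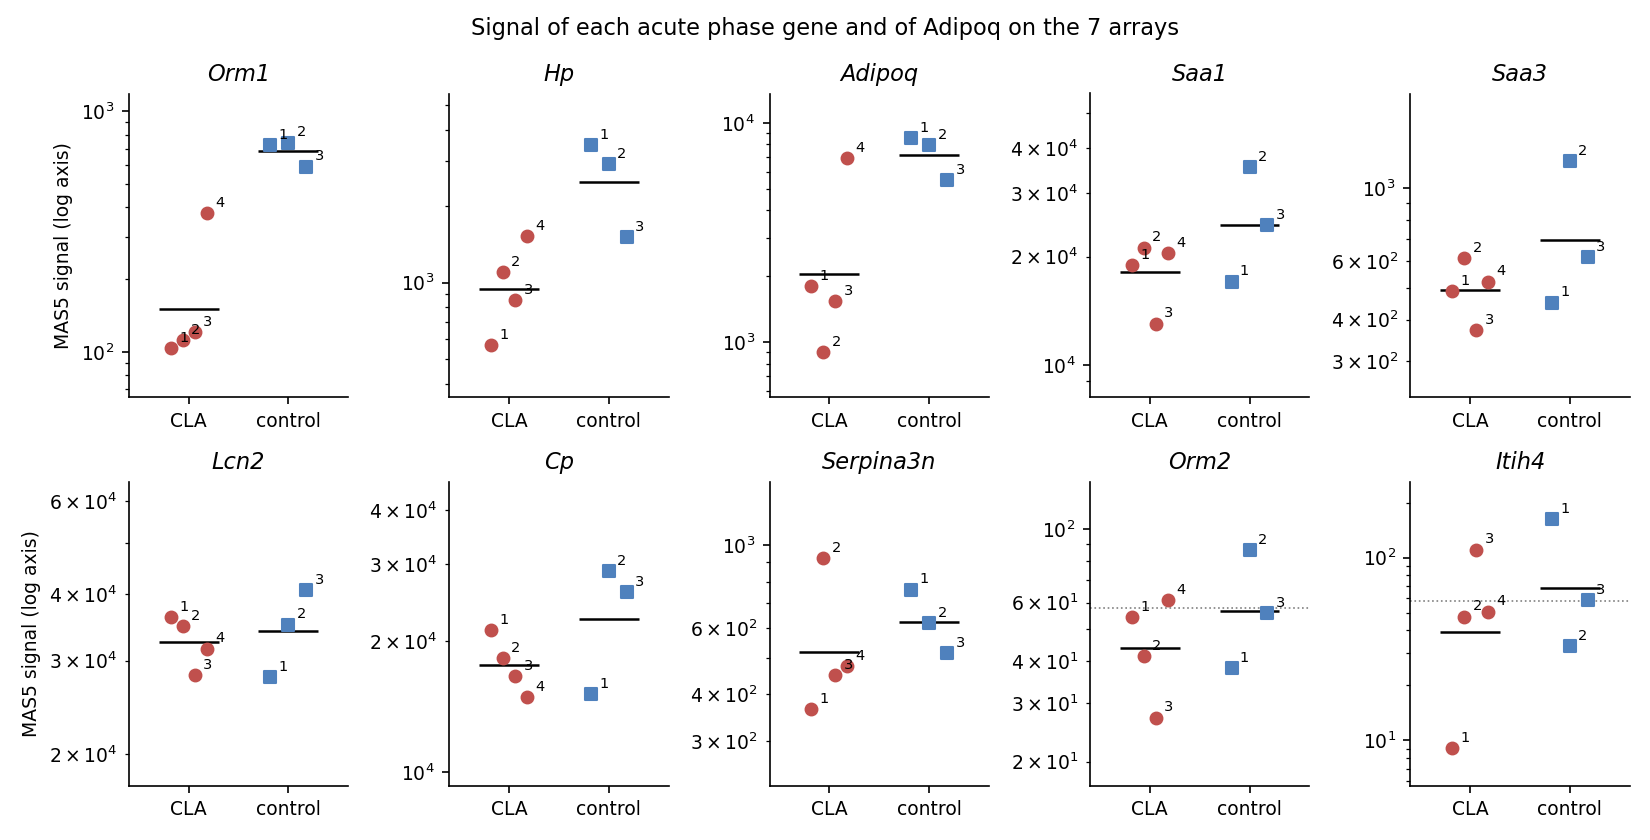
MAS5 signal (log axis) of the 9 acute phase genes and Adipoq on the 4 CLA arrays (red circles, replicate numbers beside them) and the 3 control arrays (blue squares). Black bars are geometric means and the dotted line is the filter signal of 57.7. Orm1 is the gene whose groups separate, from 104 to 376 in CLA and from 589 to 742 in control glands.

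Orm1 encodes orosomucoid, the alpha-1-acid glycoprotein, a plasma carrier of lipophilic compounds. Its signal was 104, 112, 121 and 376 on CLA replicates 1 to 4, against 727, 742 and 589 on control replicates 1 to 3. All CLA arrays lay below all control arrays, and CLA replicate 4 stood above the other CLA arrays. The means were 178 ± 132 in CLA (SD, n = 4) and 686 ± 83.9 in control glands (SD, n = 3), and the log2 change was -2.17 ± 0.42 (SE), with a 95% interval from -3.11 to -1.24. This was 4.51-fold lower in CLA, with limma's unadjusted p of 0.000456, the 14th smallest of all genes, and a limma adjusted p of 0.363. Without CLA replicate 4, the CLA array nearest the control arrays in Orm1, the change was -2.61, with a limma adjusted p of 0.00793. Leaving out that array enlarges the change and narrows the CLA spread by construction, so this p adds no support. In that fit 17 of 12492 genes passed. With any other single array left out, the change ran from -2.28 to -1.99 and the limma adjusted p from 0.176 to 0.998. In bulk tissue, fewer cells of a type and less RNA per cell cannot be told apart.

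With control replicate 1, the control array with Xist signal, as the only control array, the Orm1 change was -2.26 with a limma adjusted p of 0.999. This fit assumes that the lone array varies like the others, and the part of the other control arrays in the result was not tested. The 1 array per group whose title starts with 27 gave -2.81, the arrays starting with 28 gave -1.94, and a block for this number gave -2.20.

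Orm2, the neighbouring orosomucoid gene, was not above the filter. Its signal was 54.4, 41.5, 27.1 and 61.1 on CLA replicates 1 to 4, and 38.1, 86.4 and 55.7 on control replicates 1 to 3. The groups overlapped, and the log2 difference was -0.37, given without a test, or 0.21 with control replicate 1 as the only control array. Orosomucoid genes are close paralogs, and how far their probes share signal is not known from the files.

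Hp encodes haptoglobin, which binds free haemoglobin in plasma. Its signal was 568, 1097, 852 and 1520 on CLA replicates 1 to 4, against 3464, 2915 and 1506 on control replicates 1 to 3. CLA replicate 4 lay just above control replicate 3, and the other arrays were separate. The means were 1009 ± 404 in CLA (SD, n = 4) and 2628 ± 1010 in control glands (SD, n = 3). The log2 change of -1.39 ± 0.36 (SE), 2.61-fold lower in CLA, had a 95% interval from -2.19 to -0.58 and a limma adjusted p of 0.688. It was -1.87 with control replicate 1 as the only control array, and the arrays whose titles start with 27 and with 28 gave -2.61 and -0.90.

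Adipoq encodes adiponectin, a hormone of adipocytes. Its signal was 1807, 901, 1547 and 6936 on CLA replicates 1 to 4, against 8542, 7924 and 5486 on control replicates 1 to 3. CLA replicate 4 had the highest Adipoq, Orm1 and Hp of the CLA arrays, and control replicate 3 the lowest of each among the control arrays. Adipoq had a log2 change of -1.81 ± 0.56 (SE; 95% interval -3.07 to -0.56) and a limma adjusted p of 0.704. With control replicate 1 as the only control array it was -2.06. On CLA replicate 4 the signal stood above the mean over the 7 arrays by 0.99 for Adipoq, 0.38 for Orm1 and 0.09 for Hp on the log2 scale.

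To set the members against Adipoq, each gene's log2 signal minus that of Adipoq was fitted over all genes. The same Adipoq values enter every gene of this fit, while limma pools the genes' spreads as if they were independent. Each gene therefore gets close to the same pooled spread, whatever its own. For a gene that varies apart from Adipoq, the intervals are too narrow and the p-values too small for 7 arrays. For Orm1, which varied with Adipoq over the arrays, the pooled spread is wider than its own. The change of Orm1 minus that of Adipoq was -0.36 ± 0.89 (SE; 95% interval -2.10 to 1.38), and that of Hp was 0.43 ± 0.88, from -1.30 to 2.16. Neither differed from Adipoq past the test (limma adjusted p 0.690 and 0.632), and these pooled intervals leave room for more than a 2-fold difference either way. For Orm1 the width of that interval reflects the pooled spread and not its own. The other 5 members had less negative changes than Adipoq, by 1.74 (95% interval 0.14 to 3.35) for Lcn2, 1.55 (-0.19 to 3.28) for Serpina3n and 1.46 (-0.17 to 3.09) for Cp. Saa1 had 1.37 (-0.26 to 3.003) and Saa3 1.31 (-0.42 to 3.04). Their limma adjusted p ran from 0.0711 for Lcn2 to 0.147 for Saa3, so 0 of 7 members passed, while over all genes 1 of 12497 did (0.008%), Xist. At an unadjusted p under 0.05, Lcn2 alone of the 7 was higher than Adipoq, where 69.2% of all genes were and 69.3% differed either way, so this count says nothing particular to the members. Without CLA replicate 4, 5 members passed, all but Orm1 and Hp, and 99% of all genes did.

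**Figure D2:**
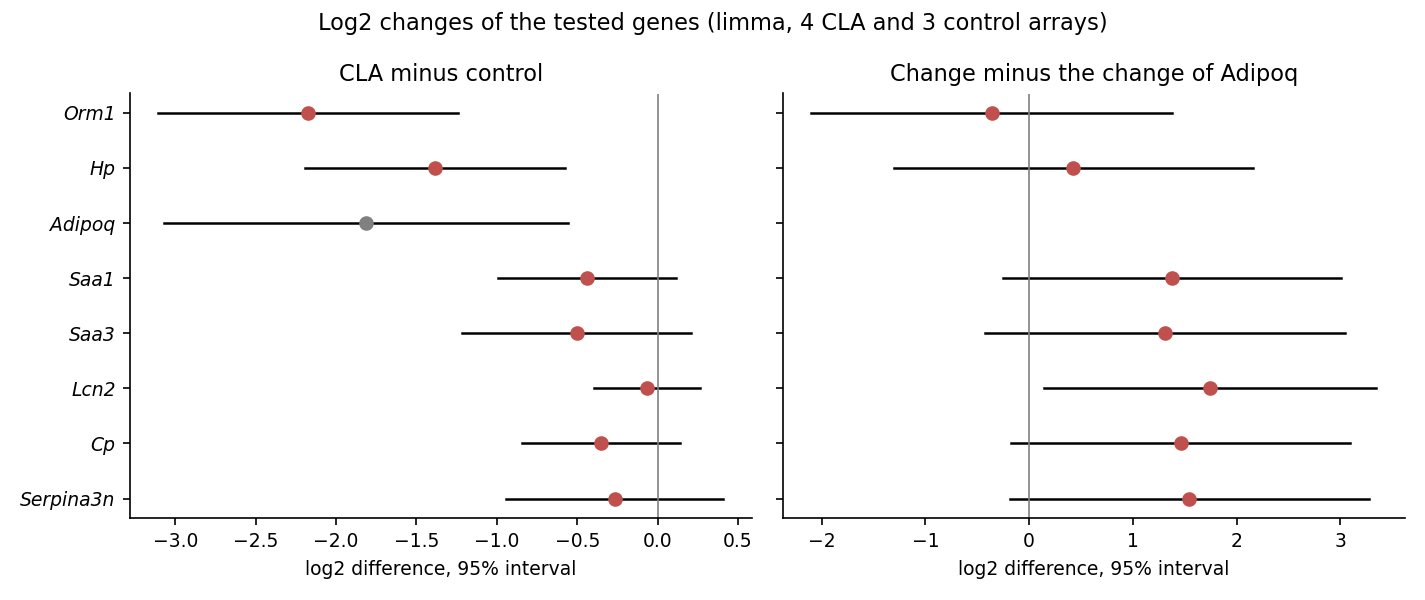
Log2 change, CLA minus control (left), and that change minus the change of Adipoq (right), for the tested genes, as points with 95% intervals from limma over 4 CLA and 3 control arrays. Every gene on the right carries the same Adipoq values and close to the same pooled spread. Intervals there are too narrow for genes that vary apart from Adipoq, and wider than Orm1's own spread gives. Orm1 and Hp lie with Adipoq on the left and near 0 on the right, at -0.36 and 0.43, and the other members lie between -0.50 and -0.07 on the left.

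The list of adipocyte markers had lower signal in CLA glands beside Orm1 and Hp. Of its 10 genes 9 had a probe set and were tested, and 9 had lower signal in CLA glands, with a median log2 change of -1.502. All 9 had an unadjusted limma p under 0.05, where 3.01% of all genes were lower at that p, and 0 passed over all genes. The list's summed signal was 14148 to 34056 on CLA arrays, the highest on CLA replicate 4, and 42034 to 52825 on control arrays. Among these genes Retn, the resistin gene, had -2.04 ± 0.33 (SE), the fatty acid importer gene Cd36 -1.502 ± 0.26 and the fatty acid binding protein gene Fabp4 -1.30 ± 0.25. The leptin gene Lep, under the filter signal on 3 CLA arrays, had 14.2, 53.7, 55.8 and 99.5 on CLA replicates 1 to 4, and 63.96, 189 and 230 on control replicates 1 to 3. The list's part in the changes of Orm1 and Hp was not tested. Skeletal muscle markers also had lower signal in CLA glands, 7 of 7, where 44.7% of all genes had a negative change. Their summed signals were 311 to 11566 on CLA and 7870 to 70491 on control arrays. Fitted beside the muscle score, Orm1 had -2.67 and Hp -2.03.

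**Figure D3:**
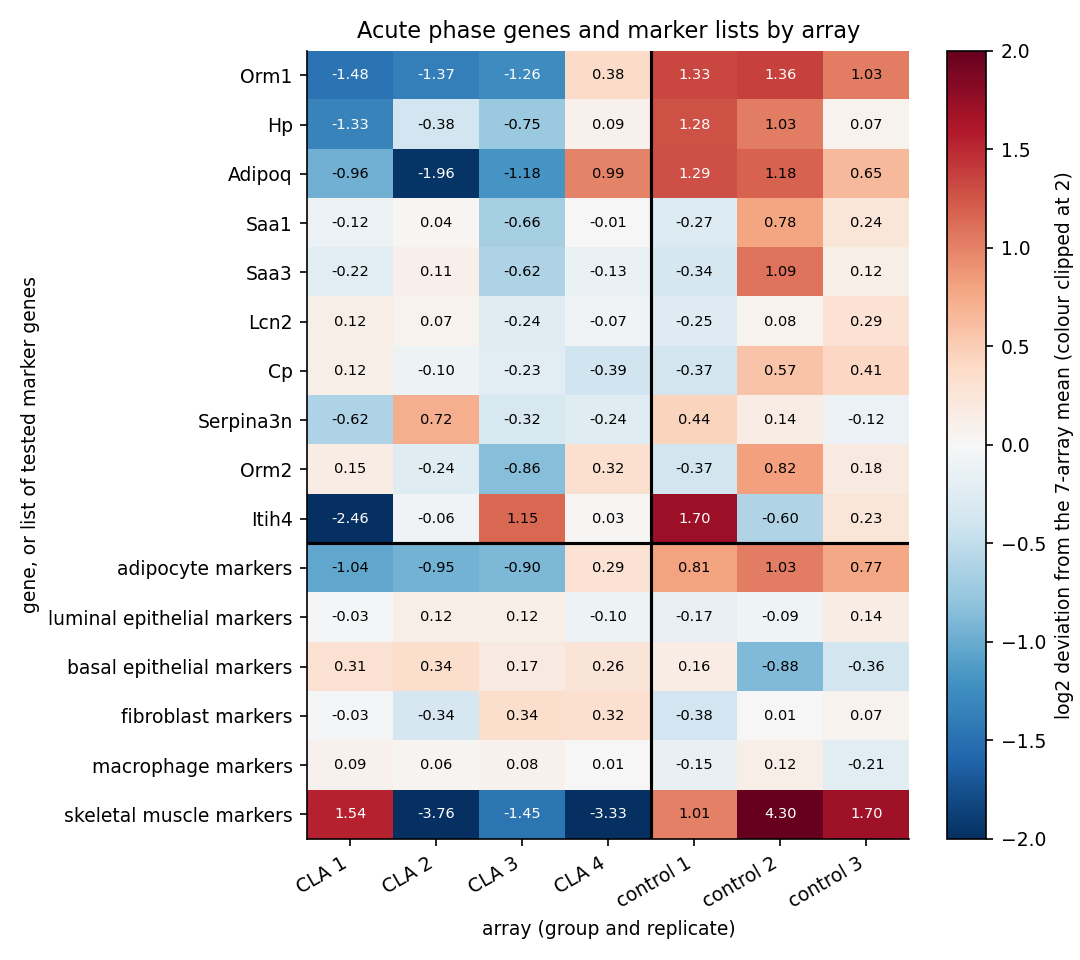
Log2 deviation from the mean over the 7 arrays for each member and Adipoq (upper rows) and averaged over the tested genes of marker lists (lower rows), with CLA arrays left of the line and control arrays right, red higher and blue lower. Orm1 has -1.48 to -1.26 on CLA replicates 1 to 3, 0.38 on CLA replicate 4 and 1.03 to 1.36 on control arrays, and the adipocyte markers have -1.04 to -0.90, 0.29 and 0.77 to 1.03.

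Saa1 and Saa3 encode serum amyloid A, an apolipoprotein of high-density lipoprotein during inflammation, and in mice Saa3 is made largely outside the liver. Saa1 signal was 18930, 21179, 13024 and 20400 on CLA replicates 1 to 4, and 17035, 35432 and 24398 on control replicates 1 to 3. Saa3 signal was 489, 615, 372 and 522 on CLA replicates 1 to 4, and 450, 1211 and 620 on control replicates 1 to 3. For both genes control replicate 2 was highest, then control replicate 3, then CLA replicates 2, 4 and 1, then control replicate 1, and CLA replicate 3 was lowest. The groups overlapped for both.

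Saa1 had a log2 change of -0.44 ± 0.25 (SE; 95% interval -0.996 to 0.12), and that of Saa3 was -0.50 ± 0.32, from -1.22 to 0.21 (limma adjusted p 0.931 for both). Single control arrays moved both values in either direction. Without control replicate 2 they were -0.17 for Saa1 and -0.10 for Saa3, and without control replicate 1 they were -0.70 and -0.82. With control replicate 1 as the only control array, they were 0.085 and 0.13. Their sign also differed between the title numbers, with 0.15 and 0.12 on the arrays starting with 27 and -0.73 and -0.82 on those starting with 28. Fitted beside the muscle score, they were -0.25 and -0.23. CLA replicate 3, the lowest array for both, had the Actb ratio farthest from the others. Leaving it out gave -0.28 for Saa1 and -0.37 for Saa3. The part of RNA integrity in them was not tested.

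The Saa1 probe set used here carries the suffix by which the array marks probe sets shared between transcripts. The other Saa1 probe set, designed on Saa1 itself, read 18081, 19068, 11731 and 23562 on CLA replicates 1 to 4, and 16539, 29304 and 24331 on control replicates 1 to 3. Its difference of -0.37 had the same direction as the first. Its order of arrays was not that of Saa3, since CLA replicate 4 lay above CLA replicate 2, and the other arrays kept their places. The Saa2 probe set, which may also take signal from Saa1, read 11450, 11711, 3379 and 8873 on CLA replicates 1 to 4, and 8385, 23681 and 13040 on control replicates 1 to 3, a log2 change of -0.79. Whether these probe sets separate Saa1 from Saa2 was not tested.

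**Figure D4:**
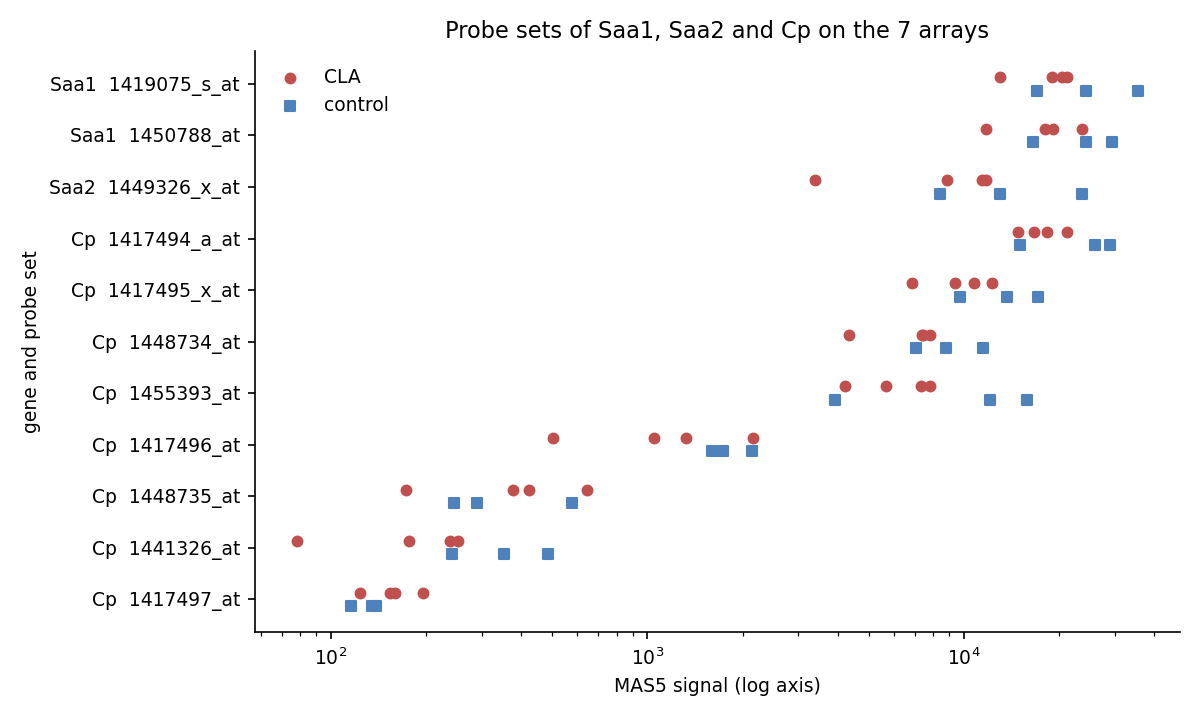
MAS5 signal (log axis) of each probe set annotated to Saa1, Saa2 or Cp, with CLA arrays (red circles) above control arrays (blue squares) in each row. CLA and control arrays overlap in each of the rows.

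Lcn2 encodes lipocalin 2, which captures bacterial iron-carrying siderophores. Its signal was 36219, 34884, 28169 and 31603 on CLA replicates 1 to 4, and 27894, 35089 and 40727 on control replicates 1 to 3. The control arrays spanned the whole CLA range. The log2 change of -0.07 ± 0.15 (SE) had a 95% interval from -0.40 to 0.26 (limma adjusted p 0.997), the narrowest interval of the members. Its sign was not stable, with 0.012 after median centring and 0.22 with control replicate 1 as the only control array. The arrays whose titles start with 27 and with 28 gave 0.38 and -0.27. The arrays carry no saturation flags here, and this probe set lay at the 99.9 percentile of all probe sets by mean log2 signal.

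Cp encodes ceruloplasmin, a copper ferroxidase. On its brightest probe set the signal was 21160, 18272, 16634 and 14884 on CLA replicates 1 to 4, and 15072, 29001 and 25951 on control replicates 1 to 3. Control replicates 2 and 3 lay above every CLA array, and control replicate 1 within the CLA range. The log2 change was -0.35 ± 0.22 (SE), with a 95% interval from -0.84 to 0.14 (limma adjusted p 0.931). It was -0.64 without control replicate 1 and -0.17 without control replicate 2. It was 0.22 with control replicate 1 as the only control array, 0.078 when fitted beside the muscle score, and 0.49 and -0.73 on the arrays whose titles start with 27 and with 28. Of the 8 Cp probe sets 6 had a negative difference and 2 a positive one, from -1.03 to 0.27, and the groups overlapped on each.

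Serpina3n encodes a secreted serine protease inhibitor. Its signal was 364, 923, 450 and 474 on CLA replicates 1 to 4, and 762, 619 and 514 on control replicates 1 to 3. CLA replicate 2 was the highest of all arrays, and the other CLA arrays lay below the control arrays. The log2 change was -0.27 ± 0.30 (SE), with a 95% interval from -0.95 to 0.41 (limma adjusted p 0.989). Leaving out single arrays moved it to -0.55 (CLA replicate 2), -0.41 (control replicate 3), -0.12 (control replicate 1) and -0.099 (CLA replicate 1). It was -0.56 with control replicate 1 as the only control array and -0.87 when fitted beside the muscle score. The arrays whose titles start with 27 and with 28 gave -1.06 and 0.045.

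Itih4, a heavy chain of the inter-alpha-trypsin inhibitor family, was not above the filter. Its signal was 9.04, 47.6, 110 and 50.7 on CLA replicates 1 to 4, and 162, 32.9 and 58.5 on control replicates 1 to 3. The groups overlapped, and the log2 difference of -0.78, given without a test, became 0.55 on the arrays whose titles start with 28. It was -2.04 with control replicate 1 as the only control array.

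The genes whose pattern over the 7 arrays was most like each member's, by Pearson r of log2 signal among the genes tested, were Lims2 for Orm1 (0.99) and Pdk4 for Hp (0.98). For Adipoq it was Agmo (0.99). Lims2 and Pdk4 had log2 changes of -0.85 and -2.98, both with separate groups, where 2.67% of all genes were separate in that direction. For the other members they were Zbtb7a for Saa1 (0.96), Mfsd11 for Saa3 (0.98), Mon1b for Lcn2 (0.97), Smim22 for Cp (0.98) and Ttll5 for Serpina3n (0.94), with log2 changes from -0.29 to -0.09 and overlapping groups. These r are descriptions of 7 points that share diet group and array. The genes were picked for their likeness, so a group difference like the member's follows from that choice.

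Other acute phase genes were mostly below the filter. Of 26 listed, 23 had a probe set and 8 were tested, 3 with positive and 5 with negative log2 changes and a median of -0.33. The albumin gene Alb read 32.9 to 72.7 on CLA and 51.4 to 85.9 on control arrays. Rbp4, which carries retinol and is also made by adipocytes, had 414 ± 290 in CLA (SD, n = 4) and 1353 ± 607 in control glands (SD, n = 3), a log2 change of -1.86 ± 0.52 (SE). The protease inhibitor gene A2m had 1.42 ± 0.72 and the metalloreductase gene Steap4 -0.48 ± 0.27, both with overlapping groups. A2m read 76.7, 113, 284 and 61.8 on CLA replicates 1 to 4, and 129, 16.6 and 33.0 on control replicates 1 to 3. Its values on control replicates 2 and 3 were under the filter signal. None of these 8 passed over all genes, with limma adjusted p from 0.688 upward.

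Complement genes beside C3 showed no common direction. Of 19 listed, 14 were tested, 8 positive and 6 negative, with a median of 0.09. The C1 inhibitor gene Serping1 had 0.46 ± 0.21 (SE), the alternative pathway gene Cfb -0.59 ± 0.31 and the decay-accelerating factor gene Cd55 -0.30 ± 0.18. Of these 14, 0 had an unadjusted limma p under 0.05, where 5.39% of all genes did.

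Of 21 listed cytokines, receptors and factors that drive acute phase genes, 17 were tested, with a median of 0.00, and the cytokine genes Il6, Il1a and Tnf lay below the filter. The interleukin-1 receptor gene Il1r1 had 190, 228, 269 and 286 on CLA replicates 1 to 4, and 150, 164 and 149 on control replicates 1 to 3, a log2 change of 0.64 ± 0.22 (SE). The interleukin-6 receptor gene Il6ra had 92.0, 87.2, 65.8 and 139 on CLA replicates 1 to 4, and 151, 155 and 215 on control replicates 1 to 3, a change of -0.89 ± 0.31. Groups were thus separate for both, in opposite directions, and also for Il1b, higher in CLA at 0.46 ± 0.22. Over all genes 2.64% were separate with higher and 2.67% with lower signal in CLA, and limma adjusted p for these 3 genes ran from 0.798 to 0.905.

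Among 11 receptors and partners of the member proteins, 8 were tested, 4 in each direction. Cd163, the macrophage scavenger receptor for haemoglobin bound to haptoglobin, had 87.1, 119, 150 and 124 on CLA replicates 1 to 4, and 254, 222 and 262 on control replicates 1 to 3. The groups were separate, as were 2.67% of all genes in that direction, at a log2 change of -1.06 ± 0.24 (SE), with a limma adjusted p of 0.577. Tlr2, which binds serum amyloid A among other ligands, had -0.26 ± 0.19, and Itgax, a subunit of complement receptor 4, had 0.31 ± 0.28.

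Glucocorticoids add to the induction of several acute phase genes. Of 8 listed genes of glucocorticoid action, all tested, 7 had negative changes, as did 44.7% of all genes, and the median was -0.14. Hsd11b1, which regenerates active glucocorticoid, had -1.33 ± 0.20 (SE) with separate groups, where 2.67% of all genes were separate in that direction. The responsive genes Zbtb16 and Tsc22d3 had -0.72 ± 0.26 and -0.57 ± 0.37, and 0 of the 8 passed over all genes.

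Markers of the other cell types the gland could hold are given by their median log2 change. Over all genes tested, 44.7% had a negative change. Of 9 luminal epithelial markers 5 were positive and 4 negative, with a median of 0.06 and Krt7, Cldn7 and Elf5, those of smallest p, at 0.45, 0.15 and -0.10. Of 9 macrophage markers 7 were positive (Fcgr1 0.52, Cd68 0.26 and Lyz2 0.26 of smallest p) and 2 negative (Itgam -0.28, Csf1r -0.03), with a median of 0.16. Of 7 fibroblast markers 6 were positive (Col1a2 0.22, Col1a1 0.44 and Lum 0.38 of smallest p) and 1 negative (Dpt -0.25), with a median of 0.22. Basal epithelial markers were split by gene, with a median of 0.85. The keratin genes Krt17, Krt5 and Krt14 had 1.67, 1.24 and 1.40 and Trp63 had 0.85, while the contractile genes Myh11 and Acta2 had -0.59 and -0.04 and the oxytocin receptor gene Oxtr -0.09. The basal list's mean log2 deviation was 0.17 to 0.34 on CLA arrays, and 0.16, -0.88 and -0.36 on control replicates 1 to 3. Krt5 read 1631 to 2198 on CLA arrays, and 1476, 579 and 559 on control replicates 1 to 3. Neutrophil markers were mostly below the filter, with 4 of 10 tested, a median of -0.07 and Ltf, S100a9 and S100a8 at -0.45, 0.60 and -0.33. Ltf is also a gene of mammary epithelium. The neutrophil granule genes Ngp, Camp, Elane and Mpo lay below the filter. Lymphocyte markers had 3 of 8 tested, with Ighm, Ltb and Cd3g at 0.63, -1.24 and -0.70, a median of -0.70. Of the muscle markers, with a median of -4.11, Myl1, Atp2a1 and Ckm had -4.58, -3.77 and -4.11, and F2 of the hepatocyte list had 0.09. None of these markers passed over all genes, and their part in the members' values was not tested.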

How the data were processed

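RNA of 7 mammary glands was measured on 1-colour Affymetrix arrays with 45101 probe sets. The authors deposited linear MAS5 signal intensity values, per the submitters' processing notes, and no source used here states the MAS5 version or a genome build. Since the arrays share a trimmed mean, a change is relative to a gland's other transcripts. The number of arrays limits the precision, and p-values measure the spread between these arrays.

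Log2 was taken after raising signals under 1 to that floor. Symbols came from GEO's platform annotation: 34945 probe sets had 1 symbol, 932 several and 9160 none. The probe set of highest mean log2 signal stood for its gene, and genes from the 40th percentile of all probe sets up entered the test. Diets were compared with limma 3.58.1 in R 4.3.3 (trended eBayes, two-sided, without covariates), with Benjamini-Hochberg adjustment across the tested genes and a threshold of 0.05. A second fit took each gene's log2 signal minus that of Adipoq. The fit of CLA against control was tested on simulated data in which genes varied independently. The fit minus Adipoq was not tested in this way. Members and gene lists were chosen with earlier results of these data known. Named genes were the members, Adipoq, the 3 genes of smallest p in each list and the gene most correlated with each member. Saa2, Xist, the Y genes, Lep, Itgam, Csf1r, Dpt, Trp63, Myh11, Acta2, Oxtr and the genes named for lying under the filter were chosen after their values were seen.

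Alternatives changed the normalization (quantile, median centring), the pseudocount (16, 64), the choice of probe set (their mean), the filter (none, 60th percentile) or eBayes (robust, without trend). Others took the title number as a block or its 2 values apart, added the muscle score to the fit, or left out each array. The comparison with control replicate 1 as the only control array was chosen after seeing the data. Python 3.11.15 with matplotlib 3.10.9 drew the figures.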

Additional observations from a re-analysis of the deposited data

Results flagged for a closer look

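Of 58 named genes checked for an array standing apart among the 4 CLA arrays, 2 did. Chance alone gives about 1 in 20, so this share is not above chance. On CLA replicate 4 Orm1 read 376, the highest, with the other CLA arrays at 104 to 121. On the same array Lims2 read 289, with the others at 169 to 183. Lims2 was named because its pattern was most like that of Orm1, so it is not a second independent case.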

How the results depend on the processing

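No alternative turned the log2 change of Orm1, Hp or Adipoq. Over the alternatives these ran from -2.81 to -1.76, from -2.61 to -0.90 and from -2.40 to -1.42. With each array left out, 0 to 1 members and 0 to 17 genes passed over all genes, 0 to 5 members differed from Adipoq, and the members' median ran from -0.70 to -0.17. The 1 member was Orm1, without CLA replicate 4, where Adipoq also passed (limma adjusted p 0.0229). That array had the highest Orm1 and Adipoq of the CLA arrays, so leaving it out enlarges both changes by construction. Then 17 genes passed, and 2 did without control replicate 1. Within title numbers starting with 28, 1 gene passed. The members' median was 0.12 within title numbers starting with 27 and 0.085 with control replicate 1 as the only control array. The cause was not tested. With that control array alone the changes of Orm2, Saa1, Saa3, Lcn2 and Cp turned to 0.21, 0.085, 0.13, 0.22 and 0.22. Fitted beside the muscle score, those of Orm2, Lcn2 and Cp turned to 0.011, 0.038 and 0.078, and Hp minus Adipoq to -0.058. Within title numbers starting with 28, Itih4 and Serpina3n turned to 0.55 and 0.045. Within title numbers starting with 27, Orm2, Saa1, Saa3, Lcn2 and Cp turned to 0.51, 0.15, 0.12, 0.38 and 0.49. Lcn2 turned to 0.012 with median centring, and with an array left out it ran from -0.22 to 0.058. Orm1 minus Adipoq turned to 0.017 with a pseudocount of 64, and Hp minus Adipoq ran from -0.037 to 0.79 with an array left out. No paired analysis was possible because the labels give no replicate numbers shared between the groups. The signals carry no detection calls, so values of Orm2 and Itih4, near background, have little order.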
